A study of Mus musculus with 7 samples.

Results

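The genes described here build and run the primary cilium, and in the retina they serve the connecting cilium of rods and cones. They were the 41 protein-coding genes of the deposited table whose symbols named an intraflagellar transport (IFT) subunit, a Bardet-Biedl (BBS) protein, a nephrocystin, a tectonic, a KIF3 motor subunit, or one of 11 other listed cilium proteins, out of 54532 genes in all. Tctn2 matched by symbol but is annotated there as a processed transcript, so it was left out. The comparison was of 4 retina libraries after infusion of Ang II (angiotensin II, a peptide that raises blood pressure) with 3 retina libraries after infusion of saline, all from day 28. The mice of both groups are ApoE-/- in the series text and WT in the genotype field of the samples. Apoe was counted 253 to 406 times in each Ang II library and 150 to 304 times in each saline library, which does not decide between the 2 descriptions. Infusion dose, age, sex and the number of animals behind a library were not stated. With no label saying that libraries came from separate animals, p-values measure the spread between libraries, which may be partly technical.

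A photoreceptor makes its light-sensing outer segment from a modified primary cilium, and all outer segment protein passes through the narrow connecting cilium, which corresponds to the transition zone of other cilia. IFT trains carry cargo along the microtubules: the IFT-B complex rides outward with kinesin-2 motors, and the IFT-A complex takes part in the return trip driven by cytoplasmic dynein-2. The BBSome, a coat-like complex, removes and sorts membrane proteins, and transition zone proteins act as the gate. In people, mutations in many of these genes cause retinal degeneration, either alone or with kidney, brain and skeletal disease.

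Promoters of ciliary genes often hold an X-box, the site bound by RFX transcription factors, so the promoter sequences of RefSeq (GRCm38.p6, from 250 bases before to 50 bases after the transcription start) were searched on both strands. Of the 41 members, 36 had a promoter in that table. The X-box half-site GTTGCC was found in 18 of these 36 genes (50%), against 2510 of 17492 protein-coding genes (14.3%). The full X-box, in which a pair of half-sites face each other, was found in 5 of 36 members (13.9%), against 302 of 17492 genes (1.73%). The 5 members with a full X-box are among the 18 with a half-site. By contrast TAATCC, the core of the site bound by the photoreceptor factor CRX, was found in 2 of 36 members (5.56%, Bbs1 and Rpgrip1), against 1323 of 17492 genes (7.56%). These matches are a description of the letters and were not tested.

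The X-boxes of those 5 genes are shown because the letters of this site, unlike those of the CRX core, had a share among members above that among all genes. Each is written 5′ to 3′ on the gene's strand with up to 8 flanking bases, and capitals mark the X-box.
Tctn1 at chr5:122264411-122264432, minus strand: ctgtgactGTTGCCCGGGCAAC
Ahi1 at chr10:20952560-20952589, plus strand: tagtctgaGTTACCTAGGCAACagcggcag
Ift57, first site, at chr16:49699199-49699228, plus strand: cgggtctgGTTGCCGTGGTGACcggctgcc
Ift57, the other site, at chr16:49699226-49699254, plus strand: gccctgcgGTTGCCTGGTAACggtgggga
Bbs1 at chr19:4906605-4906634, minus strand: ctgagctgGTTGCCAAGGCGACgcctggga
Tctn3 at chr19:40612351-40612379, minus strand: tcccagcgGTTGCCAGGTAACgggaacca
Ift57 was the member with 2 such sites, which start 87 and 60 bases before the transcription start. The Tctn3 site starts 140 bases before it, and those of Bbs1, Ahi1 and Tctn1 start 2, 22 and 37 bases into the transcript. The 18 members with a half-site had a median log2 fold change (Ang II over saline) of -0.03 and the 18 without had -0.02.

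Library totals ran between 15374638 and 17563493 counts in Ang II and between 14655431 and 16679829 in saline. Saline replicate 2 stood apart on the first principal component (33.3% of variance), and Ang II replicates 3 and 4 lay at opposite ends of the second (18.1%). Genes with any count numbered 21260 in saline replicate 2, against 24024 to 24846 in the other libraries. Rod markers held 6.68% to 7.83% of the counts in Ang II and 7.70% to 8.21% in saline, so the defining cell type of the tissue was present in each library. Pigment epithelium and melanocyte markers held 0.113% to 0.200% in Ang II and 0.0210% to 0.101% in saline, so their summed share moved with the groups. Singly they were uneven, with log2 fold changes of -0.14 (Mlana) to 1.90 (Tyr), 13 above 0 and 1 below. The groups overlapped in Tyrp1 (0.51), Pmel (0.26) and Mlana, among others. With the mean log2 CPM of these markers as a covariate, 0 of 41 members passed, where 0 of 17078 genes tested did. This covariate moved with the groups and widened the SE (Rpgr from 0.15 to 0.23). The fit therefore cannot separate the markers' level from the treatment. In bulk tissue, fewer cells of a type and less RNA per cell cannot be told apart.

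Of the 41 cilium genes, 0 were called by edgeR's quasi-likelihood test of Ang II against saline, adjusted over all genes. The test called 0 genes in the whole table, so it does not show that the members stayed the same. All 41 passed the filter on low counts, and 0 of 41 passed an adjusted p of 0.05, where 0 of 17078 genes tested did (0%). An unadjusted p under 0.05 was found for 1 of the 41 members (2.44%), against 4.62% of all genes tested. That member, Rpgr, lay higher in Ang II, where 2.9% of all genes had such a p. On the lower side were 0 members, against 1.72% of all genes. In 0 of 41 members did the groups fail to overlap, against 5.93% of all genes. By other tools and settings more genes passed across the table, and no member did: 0 of 41 by DESeq2 (0.205% of genes called), 0 of 41 by limma-voom with quality weights (0.668%) and 0 of 41 without saline replicate 3 (0.667%). The same held with replicate number as a block (0.328%) and with no filter on low counts (0.32%).

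The estimated sizes were small. Log2 fold changes of members, Ang II over saline, lay between -0.18 and 0.37, with 16 above 0 (48.9% of all genes were) and 25 below, and the median was -0.017, beside -0.005 over all genes tested. The 95% interval of the fold change stayed within 0.5 of 0 on the log2 scale for 37 of 41 members, against 54.9% of all genes, many of which have fewer counts. For those 37, the interval of this fit leaves out an increase or decrease of 0.5 or more. The exceptions were Rpgr (0.04 to 0.69), Bbs12 (-0.16 to 0.58), Rpgrip1 (-0.57 to 0.51) and Arl3 (-0.53 to 0.41), whose intervals admit larger changes. This depends on the model. With the pigment epithelium covariate, Cep290 was at 0.34 ± 0.30 (SE) and Dync2h1 at 0.27 ± 0.15 (SE), which admit changes over 0.5.

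**Figure D1:**
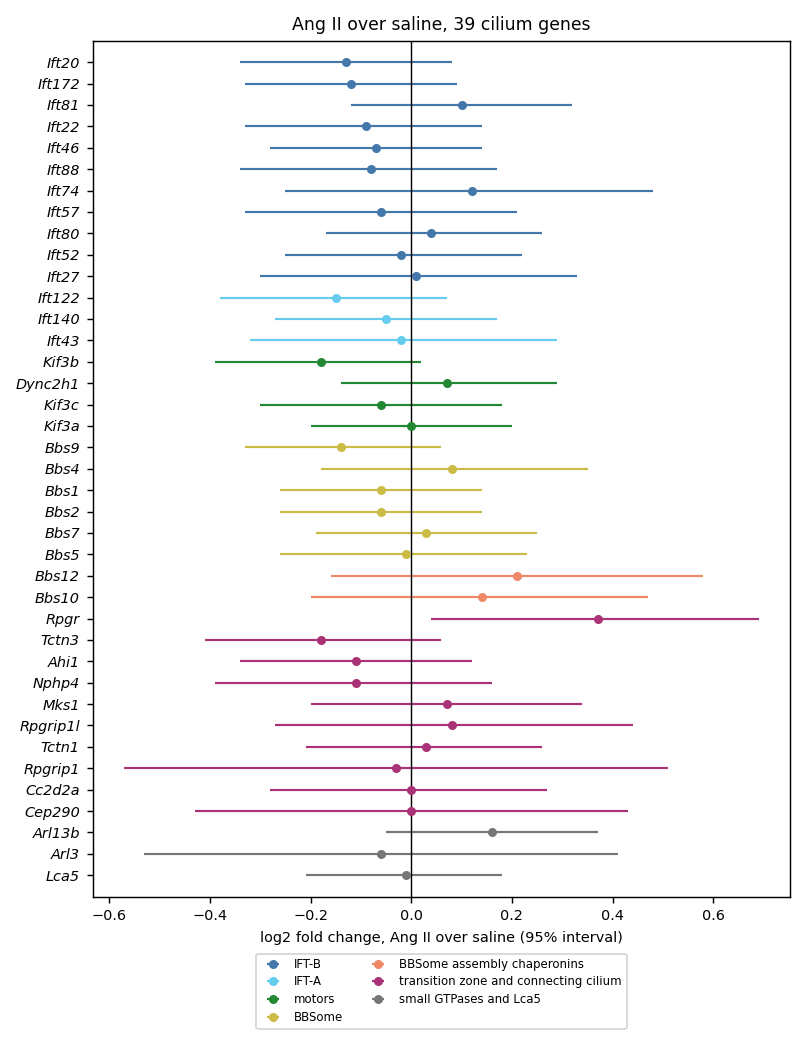
Log2 fold change of Ang II over saline (x axis) for 39 of the 41 cilium genes (rows, colored by role), with points for edgeR estimates and lines for 95% intervals, from 4 Ang II and 3 saline libraries. The interval of Rpgr, 0.04 to 0.69, is the single one that leaves out 0, and its adjusted p is 0.982.

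Levels between genes were compared as TPM, which divides counts by the gene length of the deposited table and scales each library to the same total. Of the members named here, levels spanned 5.52 TPM (Rpgrip1l) to 686.3 TPM (Arl3), and the median of all 41 was 35.56 TPM over the 7 libraries. That table gives Arl3 a length of 822 bases, whereas its exons in GENCODE M21 cover 2490 bases, and with the longer length its level would be 226.6 TPM, next to Rpgrip1 at 212.6 TPM. Bbs1 had a differing length too (82.12 TPM, or 59.73 TPM with GENCODE M21), and the other 39 members had the same length in both. The 6 BBSome genes lay at 72.97 to 124.3 TPM with the lengths of the table.

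**Figure D2:**
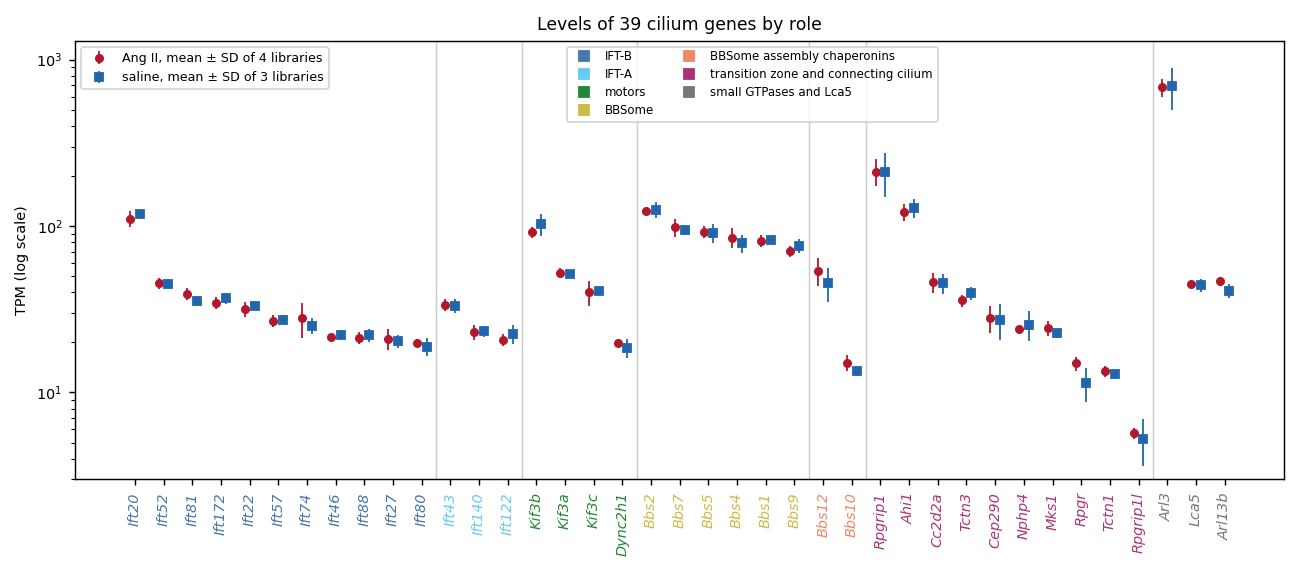
Level in TPM (log axis) of 39 of the 41 cilium genes, grouped by role and ordered by mean level, as mean ± SD of 4 Ang II libraries (circles, left) and 3 saline libraries (squares, right). Arl3 and Rpgrip1 lie highest, the 6 BBSome genes lie between 72.97 and 124.3 TPM, and the group means of each gene lie close together.

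IFT-B genes, 11 of them, had log2 fold changes of -0.13 to 0.12 (median -0.06), 4 above 0 and 7 below. Ift20, a subunit that in mammalian cells also sits at the Golgi, had 43.37, 41.73, 40.07 and 48.87 CPM (counts relative to library size, scaled by TMM) in Ang II replicates 1 to 4, against 49.36, 45.57 and 47.85 CPM in saline replicates 1 to 3. Its Ang II libraries were below every saline library except Ang II replicate 4, so the groups overlapped, and the log2 fold change was -0.13 ± 0.10 (SE). Per length it was also the most abundant IFT-B member, at 114.1 TPM.

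Ift172, a core IFT-B subunit, had 61.26, 64.85, 54.65 and 55.50 CPM in Ang II and 65.25, 67.97 and 59.26 CPM in saline. The groups overlapped, with 2 Ang II libraries below all saline libraries, and the log2 fold change was -0.12 ± 0.10 (SE). Ift88, the subunit whose hypomorphic mouse allele causes outer segment loss, had 25.70, 26.35, 27.64 and 22.12 CPM in Ang II and 28.64, 28.07 and 24.29 CPM in saline. Ang II replicate 4 was the lowest of the 7, and the log2 fold change was -0.08 ± 0.12 (SE). Ift81 (0.10) and Ift74 (0.12), which pair to bind tubulin, lay on the other side, and Ift74 reached its high in Ang II replicate 3 at 0.51 above its mean on the log2 scale.

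IFT-A genes were represented among the members by Ift122, Ift140 and Ift43, all below 0, and genes of this complex under other symbols are given below. Ift122, a core subunit, had 54.64, 59.54, 49.60 and 55.86 CPM in Ang II and 63.03, 67.41 and 52.55 CPM in saline. Saline replicates 1 and 2 were the highest while saline replicate 3 lay among the Ang II values, and the log2 fold change was -0.15 ± 0.11 (SE). Ift140 (44.56, 46.91, 52.82 and 52.97 CPM in Ang II, 56.22, 50.33 and 46.75 CPM in saline) differed by -0.05 ± 0.10. Ift43, the smallest subunit of the complex here, averaged 14.31 ± 1.14 CPM over the Ang II libraries (SD, n = 4) and 14.48 ± 1.76 CPM over the saline libraries (SD, n = 3), a difference within the spread of either group.

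Motor genes held both the lowest fold change and a member among the steadiest. Kif3b, a kinesin-2 motor subunit, had 131.5, 134.7, 125.0 and 144.0 CPM in Ang II and 149.7, 173.2 and 132.9 CPM in saline. Saline replicate 2 was far above the rest, and saline replicate 3 fell within the Ang II range. The log2 fold change was -0.18 ± 0.10 (SE), edgeR adjusted p = 0.982. It was -0.08 without saline replicate 2 and -0.26 without saline replicate 3 (edgeR adjusted p = 0.512), and 0.07 with the pigment epithelium markers' mean log2 CPM as a covariate.

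Kif3a, its heterodimer partner, had 45.07, 50.94, 49.60 and 48.45 CPM in Ang II and 50.90, 48.65 and 45.78 CPM in saline. The groups spanned the same range, the log2 fold change was 0.00 ± 0.09 (SE), and the SD of log2 CPM over 7 libraries was 0.0695, where 95.4% of the 10517 genes at or above the members' lowest mean level had a larger one. Dync2h1, the heavy chain of the return motor, had 89.34, 85.77, 80.65 and 78.40 CPM in Ang II and 85.79, 85.19 and 67.38 CPM in saline, with saline replicate 3 lowest. Its log2 fold change was 0.07 ± 0.10, -0.03 without that library and 0.14 without saline replicate 1. Kif3c (-0.06 ± 0.11) shares 40.7% of its exonic bases with other annotated genes, 1110002L01Rik foremost, so its counts are uncertain.

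BBSome genes lay on both sides, 2 above 0 and 4 below. Bbs9 had 123.0, 122.0, 107.2 and 102.6 CPM in Ang II and 119.9, 135.4 and 119.9 CPM in saline. Ang II replicates 3 and 4 were below all saline libraries, and the log2 fold change was -0.14 ± 0.09 (SE). Bbs4 had 154.8, 126.6, 144.1 and 106.7 CPM in Ang II and 122.7, 110.8 and 142.9 CPM in saline. Both groups held high and low libraries, and the log2 fold change was 0.08 ± 0.12. Bbs2, the most abundant BBSome member at 124.3 TPM, had 105.9, 109.1, 111.6 and 94.79 CPM in Ang II and 112.8, 118.5 and 97.41 CPM in saline (-0.06 ± 0.09). Bbs1, Bbs5 and Bbs7 lay between -0.06 and 0.03.

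Bbs10 and Bbs12 encode chaperonin-like proteins that help assemble the BBSome, and both lay above 0. Mkks, a chaperonin-like gene under a symbol outside the rule, lay below 0 at -0.29 ± 0.16 (SE). Bbs12 had 34.14, 30.07, 43.23 and 27.54 CPM in Ang II and 29.19, 35.63 and 22.83 CPM in saline. Ang II replicate 3 was the highest and saline replicate 3 the lowest, and the log2 fold change was 0.21 ± 0.17 (SE). It was 0.07 without either of those libraries in turn, 0.37 without saline replicate 2 and, adjusted for pigment epithelium markers, 0.52. Bbs10 had 12.85, 11.53, 13.19 and 9.82 CPM in Ang II and 11.50, 9.80 and 10.99 CPM in saline (0.14 ± 0.16). Neither Bbs10 nor Bbs12 passed (edgeR adjusted p = 0.982).

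Of the 12 transition zone genes, 5 lay above 0 and 7 at or below it. Rpgr, an X-linked retinitis pigmentosa gene that encodes a regulator at the connecting cilium, had the highest fold change of all members. It had 28.08, 27.76, 31.74 and 24.04 CPM in Ang II and 21.96, 26.25 and 16.85 CPM in saline. Ang II replicates 1 to 3 were above every saline library, while Ang II replicate 4 was below saline replicate 2. The log2 fold change was 0.37 ± 0.15 (SE), edgeR adjusted p = 0.982. It was 0.22 without saline replicate 3, 0.52 without saline replicate 2 (edgeR adjusted p = 0.926) and 0.68 with the pigment epithelium covariate (edgeR adjusted p = 1). Its adjusted p was 0.133 by limma-voom and 0.931 by DESeq2, over a range of 0.133 to 1 across all alternatives.

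Rpgrip1, which tethers Rpgr in the connecting cilium, was the member with most counts. It had 585.9, 726.8, 817.4 and 536.0 CPM in Ang II and 771.0, 816.9 and 454.1 CPM in saline. Each group held libraries at both ends of this range, and the log2 fold change was -0.03 ± 0.23 (SE). It turned to 0.12 without saline replicate 2 and was -0.25 without saline replicate 3.

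Cep290, a transition zone scaffold whose loss causes Leber congenital amaurosis, followed the same libraries: 69.07, 95.16, 98.63 and 70.38 CPM in Ang II and 91.35, 98.07 and 60.67 CPM in saline, a log2 fold change of 0.00 ± 0.19. It was -0.18 without saline replicate 3, 0.13 without saline replicate 2 and, adjusted for pigment epithelium markers, 0.34. Tctn3, a tectonic of the gate complex, had 30.91, 30.87, 27.01 and 31.88 CPM in Ang II and 34.76, 36.33 and 31.25 CPM in saline. Its Ang II libraries were below every saline library but for Ang II replicate 4, and the log2 fold change was -0.18 ± 0.11 (SE). Ahi1 (-0.11) and Nphp4 (-0.11) lay lower, and Mks1 (0.07), Rpgrip1l (0.08) and Tctn1 (0.03) higher, all with intervals that include 0. Rpgrip1, Cep290 and Tctn1 share 8.7%, 7.58% and 25.5% of their exonic bases with neighbouring annotated genes, and the protocol does not mark strand, so a part of their counts may come from those genes.

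Arl3, a small GTPase that releases lipid-anchored phototransduction proteins into the cilium, had 139.8, 121.3, 162.6 and 153.8 CPM in Ang II and 175.3, 99.05 and 177.2 CPM in saline. Saline held both the highest and the lowest of the 7 libraries, and the log2 fold change was -0.06 ± 0.20 (SE), or -0.29 without saline replicate 2 and 0.08 without saline replicate 3. Arl13b, the GTPase that activates Arl3, had 67.21, 61.73, 57.87 and 56.95 CPM in Ang II and 55.54, 58.66 and 49.50 CPM in saline, with 2 Ang II libraries above all saline libraries. Its log2 fold change was 0.16 ± 0.10. Lca5, which encodes lebercilin, averaged 72.63 ± 4.83 CPM over the Ang II libraries (SD, n = 4) and 73.32 ± 5.25 CPM over the saline libraries (SD, n = 3).

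**Figure D3:**
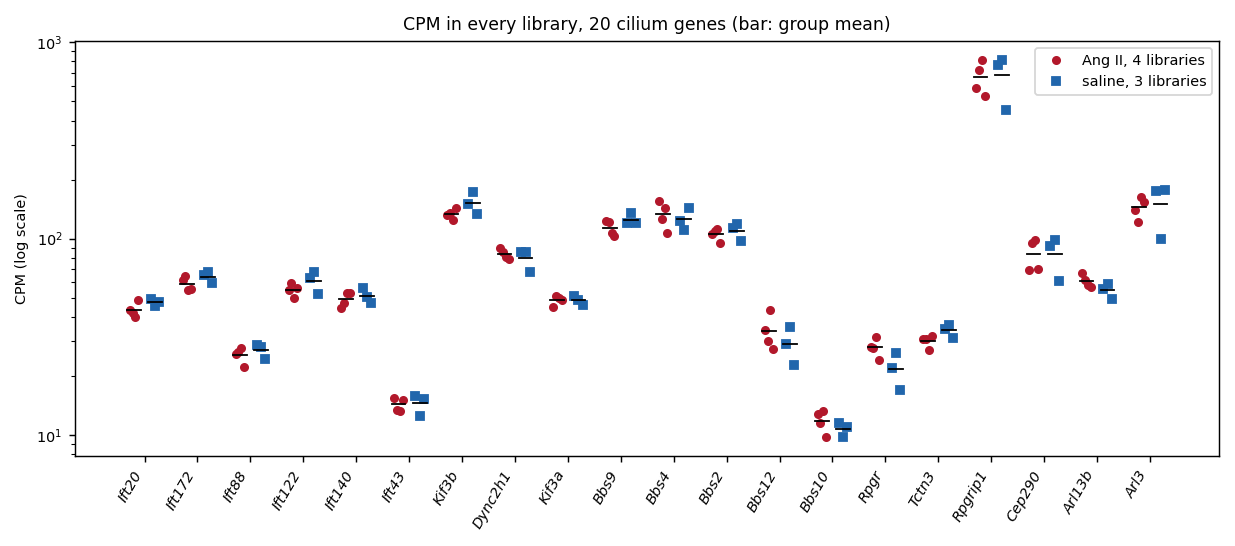
CPM (log axis) of 20 cilium genes in each of 4 Ang II libraries (circles, left) and 3 saline libraries (squares, right), with bars at group means. The groups overlap in all 20, and Rpgrip1, Cep290 and Arl3 scatter more within each group than the means differ.

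The larger differences were between libraries rather than between groups. The members' SD of log2 CPM over the 7 libraries had a median of 0.147, the same as the 0.147 of the 10517 genes at or above their lowest mean level. An SD over 0.25 was found for 6 members: Rpgrip1 (0.334), Arl3 (0.306), Rpgr (0.298), Bbs12 (0.294), Cep290 (0.290) and Rpgrip1l (0.255). Of the 10517 genes, 4.04% varied at least as much as Rpgrip1 and 7.05% at least as much as Cep290, while the counting error of Rpgrip1 alone would give 0.0139. Rpgr, Rpgrip1, Bbs12, Cep290 and Rpgrip1l, which were picked after their values were seen, all had their lowest value in saline replicate 3, at 0.56, 0.54, 0.45, 0.43 and 0.43 below their means on the log2 scale. Arl3 went the other way, 0.30 above its mean in that library and 0.54 below it in saline replicate 2.

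Saline replicate 3 was the lowest library for 10 of 41 members and Ang II replicate 4 for 14, and their median deviations were -0.084 and -0.093. The summed level of all members was 2835.4 to 3264.4 CPM in Ang II and 2801.3 to 3364.5 CPM in saline, so each group spanned the same range.

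**Figure D4:**
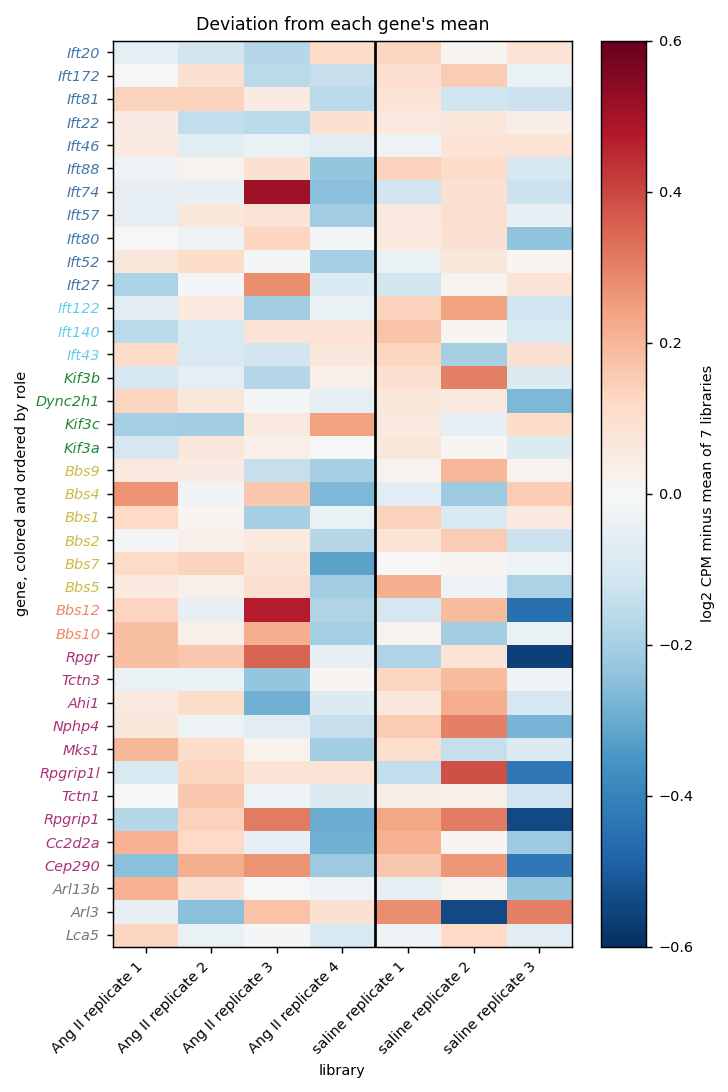
Log2 CPM minus the gene's mean over 7 libraries (color) for 39 of the 41 cilium genes (rows, by role) in 4 Ang II libraries (left of the line) and 3 saline libraries (right). Rpgr, Rpgrip1, Bbs12, Cep290 and Rpgrip1l are lowest in saline replicate 3, where Arl3 is high, and Arl3 is lowest in saline replicate 2.

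In 3 libraries the deviations were ordered with gene length. Across the 41 members, Spearman's rho between gene length and deviation was -0.47 in saline replicate 3, 0.42 in saline replicate 2 and 0.41 in Ang II replicate 2, and between -0.17 and 0.08 in the other 4 libraries. The 10517 genes at or above the members' lowest level gave -0.38, 0.24 and 0.28 in the same 3 libraries. These are correlations across genes that share a library and are not independent, given as a description. Leaving out Arl3, whose length is uncertain, they were -0.43, 0.37 and 0.37 over 40 members. Of the 11 members longer than 7 kb, 7 were lowest in saline replicate 3. The part of length in the members' differences was not tested.

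**Figure D5:**
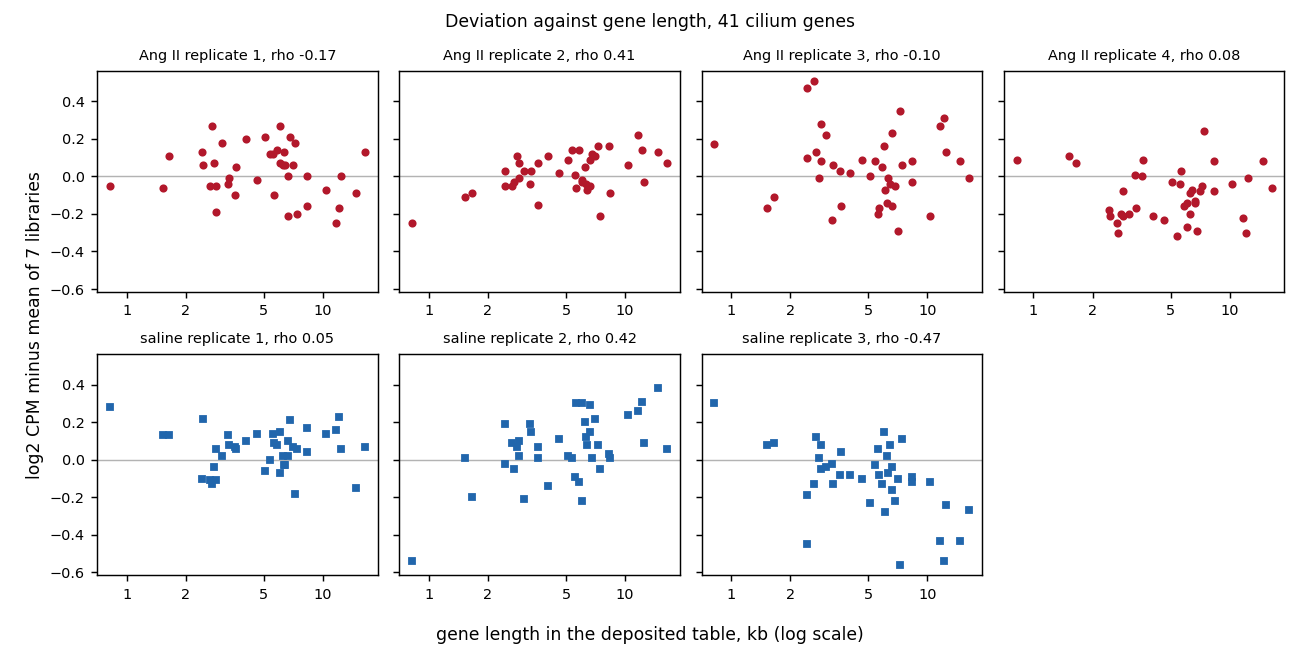
Log2 CPM minus the gene's mean (y axis) against the gene length in kb (log x axis) for the 41 cilium genes, with a panel for each of 4 Ang II and 3 saline libraries. Longer genes lie lower in saline replicate 3 (rho -0.47) and higher in saline replicate 2 (0.42) and Ang II replicate 2 (0.41).

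Other genes of the same machinery, listed under symbols outside the rule, also held no call. Of 18 further IFT and motor genes tested, 0 passed, 9 lay above 0 and 9 below, and the median log2 fold change was -0.02. Dynll1, a light chain shared by dyneins and many other complexes, was lower in all 4 Ang II libraries (82.15, 79.55, 68.41 and 81.17 CPM) than in any saline library (90.55, 110.0 and 90.51 CPM), with a log2 fold change of -0.32 ± 0.10 (SE) and an edgeR adjusted p of 0.982. The IFT-A gene Ttc21b was at -0.25 ± 0.13, whereas Wdr19 and Wdr35 of the same complex were at -0.05 ± 0.10 and 0.00 ± 0.09. Kifap3, the adaptor of the KIF3 motor, was at -0.07 ± 0.11. Dynlrb1, a dynein light chain and the most abundant of the list at 293.1 TPM, was at -0.11 ± 0.10. Of 7 BBSome-related genes, 0 passed and the median was 0.06. Mkks, a chaperonin-like gene and the one of smallest p, was at -0.29 ± 0.16, with Ttc8 at 0.06 ± 0.11 and Arl6, the GTPase that recruits the BBSome, at 0.14 ± 0.12.

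Of 30 further transition zone, basal body and lipidated-protein transport genes, 0 passed, 17 lay above 0 and 13 below, and the median was 0.01. The centriolar appendage gene Cep83 (13.93, 15.01, 18.68 and 12.17 CPM in Ang II, 10.95, 12.11 and 9.95 CPM in saline) was at 0.44 ± 0.17. Cep89, another appendage gene, lay opposite (14.83, 14.40, 14.83 and 15.79 CPM in Ang II, 18.43, 20.65 and 17.15 CPM in saline; -0.32 ± 0.13). The groups did not overlap in either, and both had an edgeR adjusted p of 0.982. They did not overlap in Iqcb1 of the same list (0.14 ± 0.11) either. Of all genes tested, 5.93% had groups that did not overlap. Unc119, which carries lipid-modified transducin, was the most abundant of the list at 2410.4 TPM and differed by -0.15 ± 0.09.

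Listed genes of the outer segment axoneme and of photoreceptor cilium disease lay slightly lower, 7 of 10 below 0, and 0 passed. Their median was -0.09, beside -0.005 over all genes tested. Cdhr1, a cadherin at the outer segment base, was below every saline library in all 4 Ang II libraries (1188.0, 1216.3, 1028.4 and 1132.8 CPM, against 1413.6, 1384.4 and 1240.3 CPM), with a log2 fold change of -0.24 ± 0.09 (SE). The axoneme gene Rp1l1 (-0.18 ± 0.09), whose groups did not overlap either, and Tulp1 (-0.17 ± 0.10) were nearby. The other 3 genes lay above 0, Nek1 at 0.23 ± 0.13, Fam161a at 0.10 ± 0.14 and Topors at 0.05 ± 0.10. Beside them, all 15 rod markers were below 0 (median -0.20) and all 10 cone markers too (median -0.17), with 0 passing in either list. An unadjusted edgeR p under 0.05 was found for 10 of the 15 rod markers and 0 of the 10 cone markers, against 4.62% of all genes. Of the 41 cilium members, 25 were below 0 with a median of -0.017, and 1 had such a p. Whether these lists differ was not tested.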

How the data were processed

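Poly-A selected RNA of 7 mouse retina samples was sequenced from random-primed cDNA without a strand mark, per the labels' protocols. The authors deposited whole-number counts per gene, not normalized, with a gene length (used for TPM) in the same table. The submitters' processing notes name featureCounts 1.5.0-p3, HISAT2 2.0.5 and CASAVA, with mm10 as the build. Annotation release, strand setting and the handling of reads that match several genes were not stated.

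Columns were matched by sample description, with 0 left unmatched. Library pairs differed beyond sampling noise, with a chi-square of 9.54 to 24.1 per degree of freedom. The test was edgeR 4.0.16 (R 4.3.3) quasi-likelihood with robust dispersion on 4 Ang II and 3 saline libraries, filterByExpr, TMM and Benjamini-Hochberg adjustment over 17078 genes, checked on simulated counts. The SE was back-calculated from F. Log2 CPM had a prior count of 2. Alternatives used DESeq2 1.42.0, limma 3.58.1, other scaling, no filter, fewer libraries, a replicate block and a pigment epithelium covariate. Exon overlaps came from GENCODE M21.

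No label pairs libraries by replicate number. Members and lists were chosen with earlier results of these data known. Values in every library are given for the 2 members of smallest p and the highest TPM of each role, and for Rpgr, Cep290, Kif3a and Ift88. From the other lists, some genes of smallest p or highest TPM were named, and a few more (Fam161a and Topors among them) were chosen after their values were seen. Some members are counted in the totals but not reported singly here.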

Additional observations from a re-analysis of the deposited data

Results flagged for a closer look

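In Ang II, Bbs7, a BBSome subunit gene, had 108.5 CPM in replicate 4 and 143.1 to 148.7 CPM in the other 3 libraries. The gap was 0.862 of the group's range, past the 95% critical value of Dixon's test for 4 samples. Its saline libraries had 134.1 ± 1.86 CPM (SD, n = 3). Chance flags about 1 in 20 groups, and 41 members were examined.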

How the results depend on the processing

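In all 15 alternatives 0 of 41 members passed. The members' median log2 fold change lay on both sides of 0, from -0.049 with limma-voom to 0.054 with the pigment epithelium covariate. It ranged from -0.046 to 0.026 when libraries were left out singly. The spread of the per-library member medians was 0.077, which is not the error of a difference between groups. The number of all genes called was 0 by edgeR, 98 with no filter on low counts, 35 with DESeq2, 114 with limma-voom, 56 with the replicate block, and 0 to 117 when libraries were left out singly (117 without saline replicate 3). The cause of these differences was not tested. None of 300 values of 20 members passed. Of 270 values of the 18 members whose log2 fold change was not 0.00 at 2 decimals, 240 kept their sign, 5 were 0.00 and 25 turned sign. The other 2 had no direction to keep: Cep290 ranged from -0.18 to 0.34 and Kif3a from -0.03 to 0.06. With library size scaling Ift43 was 0.03 and Rpgrip1 0.02. With the pigment epithelium covariate, Ift122 was 0.06, Ift140 0.11, Kif3b 0.07, Bbs4 -0.23, Bbs2 0.06, Bbs10 -0.01 and Rpgrip1 0.43. When libraries were left out singly, Ift140 ranged from -0.10 to 0.03, Ift43 from -0.11 to 0.05, Dync2h1 from -0.03 to 0.14, Rpgrip1 from -0.25 to 0.12 and Arl3 from -0.29 to 0.08. Without both Ang II replicate 3 and saline replicate 2, a choice made after seeing the data, Bbs4 was -0.04 and Rpgrip1 0.01. Arl3 kept its sign there but was further from 0, at -0.35 ± 0.10 (SE, edgeR adjusted p = 0.825). With the replicate block Rpgrip1 was 0.09 and 0 members passed. Same-numbered libraries correlated by -0.0686, -0.0207 and 0.0463 in their deviations from group means, so the numbers were not taken as pairs.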

Other observations

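Genes of motile cilia, which retinal neurons lack, were mostly at low levels. All 14 of a list were in the table, 10 passed the filter on low counts, and their summed level was 72.13 to 81.74 CPM in Ang II and 68.48 to 77.56 CPM in saline. Foxj1, the master regulator of motile ciliogenesis, averaged 5.37 ± 0.982 CPM over the Ang II libraries (SD, n = 4) and 5.39 ± 0.499 CPM over the saline libraries (SD, n = 3). The axonemal dynein gene Dnah5 was below 1 CPM in all 7 libraries, whereas Dnah9 was at 35.27 ± 6.65 CPM in Ang II and 36.01 ± 5.51 CPM in saline. Ccdc39 was at 19.91 ± 2.12 CPM in Ang II and 16.94 ± 2.84 CPM in saline. Both Dnah9 and Ccdc39 lay within the range of the cilium members' CPM. Of the 10 tested, 0 passed the edgeR test (smallest adjusted p = 0.982).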
